A study of Mus musculus with 6 samples.

Results

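Chromatin accessibility was examined at 9 mouse genes that dampen or receive WNT signals: the antagonists Dkk1, Shisa2, Wif1, Sfrp1, Sfrp2, Sfrp5 and Frzb, and the receptor genes Fzd5 and Fzd8. Members were the rows of the authors' deposited peak table whose gene column names one of these genes, which gave 49 of 70494 peaks. The cells were mouse epiblast stem cells of the 7H line, a BL6/129 hybrid, in which OTX2, a homeodomain transcription factor of the anterior embryo, carries a dTAG-EGFP fusion that the small molecule dTAG13 marks for degradation. Every library came from this tagged line after differentiation to definitive endoderm, with Activin A at 40 ng/ml and CHIR at 3 uM for 16 h, then Activin A at 100 ng/ml and LDN at 100 nM for 24 h. The 3 dTAG13 libraries had dTAG13 for 24 h, added once cells had reached the primitive streak stage, and the 3 DMSO libraries had the solvent for the same time. Each library was made by ATAC-seq, in which a transposase cuts open chromatin, from 50000 sorted live cells, and the comparison asked which open sites depend on OTX2 at this stage. Replicates of a group are described as technical in the series, so p-values measure only the spread between such libraries, and an untagged line given dTAG13 was not among the groups analysed here.

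WNT ligands bind a Frizzled receptor together with an LRP co-receptor, and the members act around this step. Dkk1 takes the LRP co-receptors out of use, the secreted Frizzled-related proteins (Sfrp1, Sfrp2, Sfrp5 and Frzb) and Wif1 bind WNT ligands outside the cell, and Shisa2 holds Frizzled proteins back in the endoplasmic reticulum. In the gastrulating mouse embryo, antagonists made in anterior endoderm keep WNT activity low where the head will form, and Dkk1 is required for the head.

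Among the 49 peaks, 9 were lower in dTAG13 and 0 were higher at an adjusted p under 0.05 in the authors' deposited table. At an unadjusted p under 0.05 the numbers were 12 lower and 2 higher, beside 8965 lower and 4938 higher of all 70494 peaks. The 9 lower peaks make up 18.4% of the members, while 3.79% of the 69128 peaks tested across the genome were lower and 1.47% were higher. The members were chosen with earlier results of these data known, so this difference is a description only. The 9 lower peaks lie at 5 of the 9 genes: 4 at Shisa2, 2 at Sfrp5 and 1 each at Dkk1, Frzb and Fzd8. Peaks at 1 locus share their surroundings and are not replicates of each other. All 9 lie more than 1000 bases from a start site of their gene, where 9 of 36 member peaks were lower beside 5.09% of all peaks that far from any start site. With a minimum mean of 5 normalized reads, chosen after the data were seen, 9 of 28 such member peaks were lower (32.1%). The share was 6.30% of all peaks with that mean and that far from any start site. Within 1000 bases of a start site, 0 of 13 member peaks were called in either direction by the same test, with 0 lower and 1 higher at an unadjusted p under 0.05. Of all peaks that near to any start site, 1.08% were called lower and 1.20% higher. At the unadjusted threshold 1164 of those 22428 peaks were lower and 1709 higher.

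The sequences of 4 of the lower peaks are shown because they hold, or lack, the short motif that OTX factors recognise. They are read from the GRCm38 (mm10) plus strand, at most 300 bases around the middle of the peak. Capitals mark 2 short motifs, found on either strand. One is the homeodomain core, 5 bases long and spelt GATTA. The other is the 7-base TCF/LEF motif, spelt CTTTGAT, which nuclear effectors of WNT signalling bind.
Dkk1 upstream peak, chr19:30554471-30554770: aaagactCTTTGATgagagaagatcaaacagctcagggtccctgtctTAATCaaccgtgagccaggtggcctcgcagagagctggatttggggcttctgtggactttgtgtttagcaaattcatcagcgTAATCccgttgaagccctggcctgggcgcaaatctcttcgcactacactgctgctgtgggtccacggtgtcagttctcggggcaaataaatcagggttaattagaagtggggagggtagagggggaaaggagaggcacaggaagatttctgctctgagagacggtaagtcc
Sfrp5 far upstream peak, chr19:42215206-42215505: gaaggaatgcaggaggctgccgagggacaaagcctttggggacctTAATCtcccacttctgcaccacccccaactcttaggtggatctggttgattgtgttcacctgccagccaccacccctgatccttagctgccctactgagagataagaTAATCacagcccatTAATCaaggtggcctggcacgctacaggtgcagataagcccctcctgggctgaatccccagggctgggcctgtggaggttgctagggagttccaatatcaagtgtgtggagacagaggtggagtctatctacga
Shisa2 outer peak, chr14:59756576-59756875: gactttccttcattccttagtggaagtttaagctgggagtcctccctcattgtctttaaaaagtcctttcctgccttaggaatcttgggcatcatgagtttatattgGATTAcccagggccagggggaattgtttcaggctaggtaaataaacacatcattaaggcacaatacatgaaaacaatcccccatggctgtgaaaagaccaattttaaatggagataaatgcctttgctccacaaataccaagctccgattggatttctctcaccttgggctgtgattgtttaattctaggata
Shisa2 zero-read peak, chr14:59736857-59736988: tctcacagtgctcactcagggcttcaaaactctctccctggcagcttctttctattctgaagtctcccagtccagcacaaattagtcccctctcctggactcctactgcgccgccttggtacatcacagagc

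The Dkk1 window holds 1 full OTX consensus, GGATTA, whose centre lies 18 bases from the middle of the peak, and a TCF/LEF match near its left edge. The Shisa2 outer peak holds 1 GGATTA, 41 bases from its middle. The Sfrp5 window has 3 GATTA cores but no GGATTA, and the Shisa2 zero-read peak has no core at all. Within 100 bases of the middle, GGATTA occurred in 7 of the 49 member peaks (14.3%), beside 8.81% of all peaks in the table and 34.1% of all lower peaks. Of the 9 lower member peaks 3 held it, the third at Fzd8, as did 4 of the 40 others. The same letters read backwards, ATTAGG, served as a control for base composition and occurred in 3 members (6.12%), in 7.06% of all peaks and in 16.0% of all lower peaks. It too was more frequent among lower peaks, with 2 of the 9 lower members and 1 of the 40 others holding it. GATTA alone, searched after the sequences had been seen and overlapping GGATTA, occurred in 11 members (22.4%) and in 21.7% of all peaks. It was in 58.2% of all lower peaks, in 4 of the 9 lower members and in 7 of the 40 others. The GATA motif AGATAA was found in 16 members (32.7%, beside 15.6% of all peaks), 3 times in the Sfrp5 window, and the FOX motif TGTTTAC in 5 members (10.2%, beside 5.33%). AGATAA was in 30.1% of all lower peaks, in 3 of the 9 lower members and in 13 of the 40 others. CTTTGAT occurred in 2 members (4.08%, beside 2.83%), the TEAD motif GGAATG in 4 (8.16%, beside 11.5%) and the T-box motif AGGTGTGA in 0 (beside 1.71%). Both strands were searched for every motif, and a match is a description of the letters only.

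Reads per library are given below in order of size factor within a group, largest first,, because the replicate number of each library cannot be told from the table. They were recovered from the deposited means for 48 of the 49 peaks. The size factors that scale the libraries were 1.35, 1.31 and 1.09 in DMSO and 0.961, 0.823 and 0.780 in dTAG13. Every DMSO size factor, a measure of reads over peaks and not of total depth, was above every dTAG13 one, with means 1.46 times apart, and the part that this played in the calls was not tested. Even numbers made up 56 of the 69 dTAG13 values between 1 and 12 reads and 34 of the 48 such DMSO values, so the reads may not be independent fragments. Counting intervals and floors below cover counting error of independent reads only and may be too narrow. As a check of the tissue, the start sites of all 8 endoderm markers examined (Foxa2, Sox17, Cxcr4, Gsc, Eomes, Gata6, Hhex and Cer1) had peaks, with summed means of 20.7 to 99.0 normalized reads per gene. Peaks also lay at the start sites of all 4 neurectoderm markers and 3 of 6 epiblast markers (none at Nanog, Dppa4 and Tdgf1). The same held for 3 of 6 mesoderm markers and 3 of 4 extraembryonic markers. Summed means reached 26.7 normalized reads at neurectoderm, 47.9 at epiblast, 9.97 at mesoderm and 41.1 at extraembryonic markers. An open promoter therefore does not tell these cell types apart. Of these start-site peaks, 1 was lower in dTAG13, at the epiblast marker Pou5f1 (log2 fold change -2.99, SE 0.52), and 1 was higher, at the neurectoderm marker Sox1 (1.44, SE 0.44), in the authors' deposited table. The part of such cells in the member peaks was not tested. In bulk libraries, fewer cells with an open site and less opening per cell cannot be told apart.

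Dkk1 had 3 peaks, and the one farthest from the gene was lower after dTAG13. It lies 4956 bases upstream of the start site in intergenic DNA (chr19:30554417-30554824, mm10). The 3 DMSO libraries had 100, 77 and 60 reads there and the 3 dTAG13 libraries had 34, 30 and 15. All DMSO libraries stood above all dTAG13 libraries after scaling, at 62.6 ± 10.04 and 30.4 ± 9.64 normalized reads (SD, n = 3 libraries each). In the authors' deposited table this peak fell by 1.04 on the log2 scale (adjusted p = 0.0113, SE 0.28), and it was in the pooled peak lists of both groups. With the GC deciles each centred on their own median, the adjusted p was 0.0646, within a range of 0.00449 to 0.0646 over the alternatives tried. The Dkk1 peak nearest the start site, 98 bases inside the gene, had 31, 18 and 36 reads in DMSO and 14, 12 and 22 in dTAG13. Here the groups overlapped, and the authors' deposited table gave a log2 fold change of -0.28 (adjusted p = 0.759, SE 0.42). The third peak, 807 bases upstream, was at 14.9 ± 3.53 and 15.3 ± 3.64 normalized reads (SD, n = 3).

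**Figure D1:**
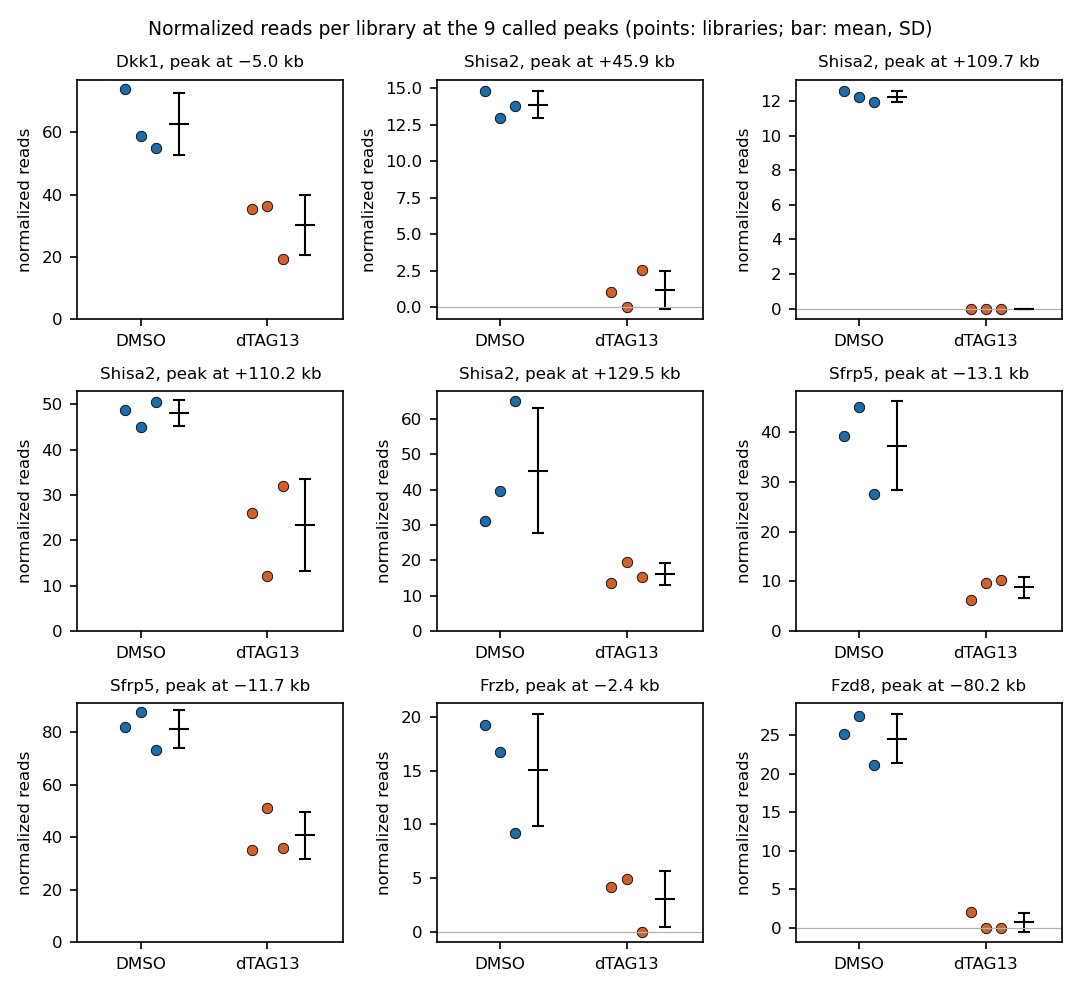
Normalized reads (vertical axis, linear) in each DMSO (blue) and dTAG13 (orange) library at the 9 lower peaks, with the mean and SD of 3 libraries beside the points; titles give the distance of the peak middle from the nearest annotated start site of its gene, minus for upstream. At every peak each dTAG13 library lies below each DMSO library, down to 0 reads in all 3 dTAG13 libraries at the Shisa2 peak 109.7 kb from its gene. The peaks were chosen by a test on these same libraries, so their separation is no further support. Its share over all peaks is not known, since reads were recovered for member peaks only.

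Shisa2 had the most lower peaks, 4 of its 11, and its log2 fold changes had a median of -1.49 in the authors' deposited table, with 10 of 11 negative. The 4 lower peaks, and 5 of the others, lie inside introns of the neighbouring gene Atp8a2, 40.1 to 131.4 kb from Shisa2. The nearest annotated start site to each of these 9 peaks belongs to the gene model Gm19716, so their link to Shisa2 rests on the gene column alone. Atp8a2 encodes a lipid-flipping membrane ATPase and is not a member.

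The sharpest change at this locus was at the peak 109.7 kb from Shisa2, in intron 32 of Atp8a2 (chr14:59736857-59736988). It had 17, 16 and 13 reads in the DMSO libraries and 0 in every dTAG13 library. Against a floor of 3 reads over the whole dTAG13 group, DMSO was at least 10.5-fold higher, and with counting error in DMSO included the exact 95% lower limit was 8.19-fold. The authors' deposited table gave a log2 fold change of -5.82 (adjusted p = 0.00191, SE 1.33), a fitted value that is no bound, and the peak was in the DMSO list alone. Only 202 bases away, in the same intron, lay a broader peak (chr14:59737191-59737507) that lost less. It had 66, 59 and 55 reads in DMSO and 25, 10 and 25 in dTAG13, or 48.1 ± 2.79 and 23.4 ± 10.2 normalized reads (SD, n = 3). The groups did not overlap, and in the authors' deposited table it fell by 1.04 (log2, adjusted p = 0.0302, SE 0.32) while staying in both peak lists. With the median of all peaks set to 0 its adjusted p was 0.0807, and with GC deciles centred it was 0.297.

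The Shisa2 outer peak, 129.5 kb from the gene and also in intron 32 (chr14:59756508-59756943), is the one shown above with a GGATTA. Its DMSO libraries had 42, 52 and 71 reads and its dTAG13 libraries 13, 16 and 12. This gave 45.3 ± 17.7 and 16.1 ± 3.02 normalized reads (SD, n = 3), with no overlap but a wide DMSO spread. In the authors' deposited table it fell by 1.49 (log2, adjusted p = 0.00546, SE 0.37), and with GC deciles centred the adjusted p was 0.0798. The fourth lower peak lies in intron 34 at 45.9 kb (chr14:59673018-59673147), with 20, 17 and 15 reads in DMSO and 1, 0 and 2 in dTAG13. The size-factor-scaled ratio of summed reads was 11.8, with an exact 95% counting interval of 3.84 to 59.3. In the authors' deposited table this peak fell by 3.56 (log2, adjusted p = 0.0152, SE 0.995), and it was in the DMSO list alone. Its ratio of means, 11.5-fold, was 26.6-fold without the dTAG13 library of size factor 0.780 and 7.68-fold without the one that had 0 reads.

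A further 2 weak Shisa2 peaks had reads in DMSO and 0 in every dTAG13 library but missed the threshold. At 131.4 kb the DMSO libraries had 12, 4 and 3 reads, at least 4.33-fold above the floor, or 2.49-fold without the DMSO library that had 12 reads, with an exact 95% lower limit of 3.19-fold over all libraries (adjusted p = 0.0736 in the authors' deposited table). At 40.1 kb they had 8, 2 and 7 reads, at least 3.87-fold above it, with an exact 95% lower limit of 2.82-fold (adjusted p = 0.0894 in the authors' deposited table). The first of these is the member peak just outside the threshold, and the Frzb peak described below, at 0.0409, is the one just inside. The peak over the Shisa2 start site itself had 34, 40 and 14 reads in DMSO and 8, 17 and 14 in dTAG13. Its groups overlapped, with a log2 fold change of -0.58 (adjusted p = 0.499, SE 0.44) in the authors' deposited table. The peak 915 bases upstream of it was the only Shisa2 peak with a positive value, 2.01 (adjusted p = 0.318, SE 1.13) in the authors' deposited table, and it was in the dTAG13 list alone.

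**Figure D2:**
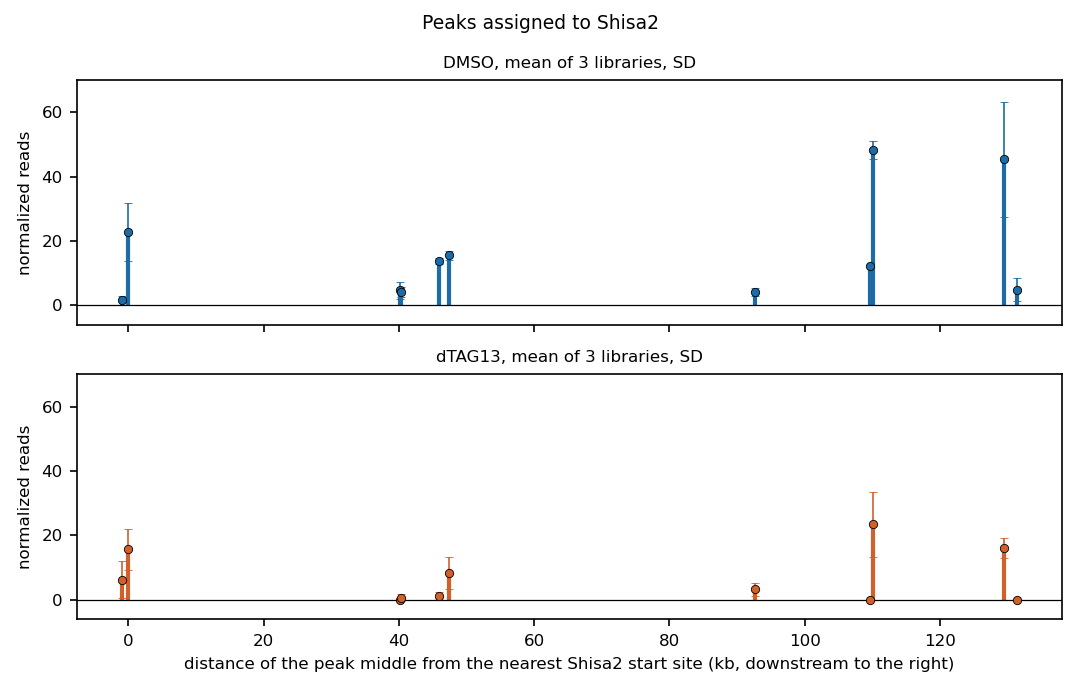
Mean normalized reads (vertical axis; SD of 3 libraries) of the 11 Shisa2 peaks by distance from the nearest Shisa2 start site in kb (horizontal axis), DMSO above and dTAG13 below. The peaks near 110 and 129.5 kb go from 48.1 and 45.3 in DMSO to 23.4 and 16.1 in dTAG13, while the start-site peak goes from 22.8 to 15.6.

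Sfrp5, a Frizzled-related antagonist made by anterior endoderm, had 2 lower peaks in intergenic DNA upstream of the gene. The far one lies 13.1 kb upstream (chr19:42215206-42215505), with 53, 59 and 30 reads in DMSO and 6, 8 and 8 in dTAG13. It was at 37.3 ± 8.91 and 8.74 ± 2.18 normalized reads (SD, n = 3), a 4.26-fold difference with no overlap. The authors' deposited table put its fall at -2.12 (log2, adjusted p = 0.000388, SE 0.44), the smallest adjusted p of the 49 peaks, and it was in the DMSO list alone. The near one, 11.7 kb upstream (chr19:42213666-42214140) and 1065 bases from its neighbour, had 111, 115 and 80 reads in DMSO and 34, 42 and 28 in dTAG13. Its libraries also fell into separate groups, in both peak lists, with a log2 fold change of -0.999 (adjusted p = 0.0031, SE 0.24) in the authors' deposited table. The start-site peak, 51 bases inside the gene, had 20, 19 and 20 reads in DMSO and 17, 12 and 2 in dTAG13. Its groups overlapped (log2 fold change -0.42, adjusted p = 0.701, SE 0.52 in the authors' deposited table).

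Frzb, also a Frizzled-related protein, had 6 peaks, of which 1 was lower and the other 5 had positive log2 fold changes. The lower peak lies 2422 bases upstream of a noncoding Frzb transcript and is annotated as a promoter. It is 6.57 kb downstream of the outermost Frzb start site, inside the gene. The DMSO libraries had 26, 22 and 10 reads and the dTAG13 libraries 4, 4 and 0, so the groups did not overlap at 15.1 ± 5.25 and 3.01 ± 2.63 normalized reads (SD, n = 3). It fell by 2.30 (log2, adjusted p = 0.0409, SE 0.74) in the authors' deposited table and was in the DMSO list alone. This call was lost with the median of all peaks set to 0 (adjusted p = 0.0607) and with GC deciles centred (0.154). The 5.01-fold ratio of means was 3.34-fold without the dTAG13 library that had 0 reads there. At the start site the order was the other way: the peak 205 bases inside the gene had 30, 18 and 40 reads in DMSO and 42, 30 and 29 in dTAG13. It was at 24.2 ± 11.6 and 39.1 ± 3.99 normalized reads (SD, n = 3), with overlapping groups and a log2 fold change of 0.71 (adjusted p = 0.215, SE 0.34) in the authors' deposited table. The peak 811 bases upstream of the start had 57, 75 and 60 reads in DMSO and 58, 54 and 66 in dTAG13 and did not overlap after scaling, at 51.5 ± 8.14 and 70.2 ± 12.8. Its log2 fold change of 0.44 (SE 0.23) came with an adjusted p = 0.271 (authors' deposited table), which was 0.0379 with GC deciles centred.

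Sfrp1 had the most peaks, 12 spread from 23.8 kb upstream to 59.0 kb downstream of its start, and none was called in either direction. The largest positive value was 9336 bases upstream, where DMSO had 11, 7 and 4 reads and dTAG13 had 12, 8 and 22. The groups did not overlap after scaling, at 5.72 ± 2.26 and 16.8 ± 9.98 normalized reads (SD, n = 3). The ratio of means, 2.94-fold, was 1.94-fold without the dTAG13 library of size factor 0.780. The log2 fold change was 1.53 (adjusted p = 0.103, SE 0.59) in the authors' deposited table, and the adjusted p was 0.0447 with GC deciles centred. A peak in intron 2, 24.2 kb inside the gene, had 114, 75 and 66 reads in DMSO and 43, 36 and 38 in dTAG13. It gave -0.56 (log2, adjusted p = 0.157, SE 0.24) in the authors' deposited table without overlap of the scaled libraries. The start-site peak, 45 bases upstream, had 48, 55 and 52 reads in DMSO and 36, 27 and 29 in dTAG13, overlapping groups with a log2 fold change of -0.21 (adjusted p = 0.722, SE 0.28) in the authors' deposited table. The signs over the 12 Sfrp1 peaks were 6 negative and 6 positive.

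Sfrp2 and Wif1 had 2 and 3 peaks, none of them called. The Sfrp2 start-site peak, which holds a GGATTA within 100 bases of its middle, had 32, 35 and 21 reads in DMSO and 18, 24 and 20 in dTAG13. It was at 23.2 ± 3.74 and 24.5 ± 5.31 normalized reads (SD, n = 3), a log2 fold change of 0.06 (adjusted p = 0.946, SE 0.36) in the authors' deposited table, so a GGATTA was present without a call. The Sfrp2 peak 14.7 kb upstream was at 15.9 ± 6.11 and 9.85 ± 4.10 (SD, n = 3; adjusted p = 0.495 in the authors' deposited table). At the Wif1 start site DMSO had 10, 18 and 20 reads and dTAG13 had 14, 8 and 10, a log2 fold change of -0.07 (adjusted p = 0.959, SE 0.51) in the authors' deposited table. The Wif1 peak in intron 6 had 14, 14 and 11 reads in DMSO and 2, 2 and 6 in dTAG13. These groups did not overlap, but the adjusted p was 0.277 in the authors' deposited table.

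The receptor genes Fzd5 and Fzd8 had 3 and 6 peaks, with 1 lower, at Fzd8. That peak lies 80.2 kb upstream in intergenic DNA (chr18:9131791-9132131), nearer to the start of the gene model AC126041.1, and has a GGATTA and an ATTAGG within 100 bases of its middle. It had 34, 36 and 23 reads in the DMSO libraries and 2, 0 and 0 in the dTAG13 libraries. The size-factor-scaled ratio of summed reads was 31.8, with an exact 95% counting interval of 8.55 to 266. In the authors' deposited table it fell by 4.99 (log2, adjusted p = 0.00127, SE 1.10), and it was in the DMSO list alone. All reads in dTAG13 came from the library of size factor 0.961, so without that library the group was at 0. The Fzd8 start-site peak, 39 bases upstream of the gene, had 69, 46 and 54 reads in DMSO and 34, 36 and 41 in dTAG13. It was at 45.2 ± 8.81 and 43.9 ± 8.61 normalized reads (SD, n = 3; log2 fold change -0.05, adjusted p = 0.943, SE 0.27 in the authors' deposited table).

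The Fzd5 start-site peak, with a mean of 143 normalized reads over the 6 libraries, was the one whose reads were not recovered. The authors' deposited table gave it a log2 fold change of -0.32 (adjusted p = 0.266, SE 0.16). Upstream of Fzd5, the peak at 24.1 kb had 20, 14 and 12 reads in DMSO and 0, 0 and 6 in dTAG13, and the one at 35.7 kb had 16, 10 and 12 and then 6, 2 and 2. Neither pair of groups overlapped after scaling, but the errors were large, with log2 fold changes of -2.28 (adjusted p = 0.404, SE 1.48) and -1.40 (adjusted p = 0.278, SE 0.74) in the authors' deposited table.

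**Figure D3:**
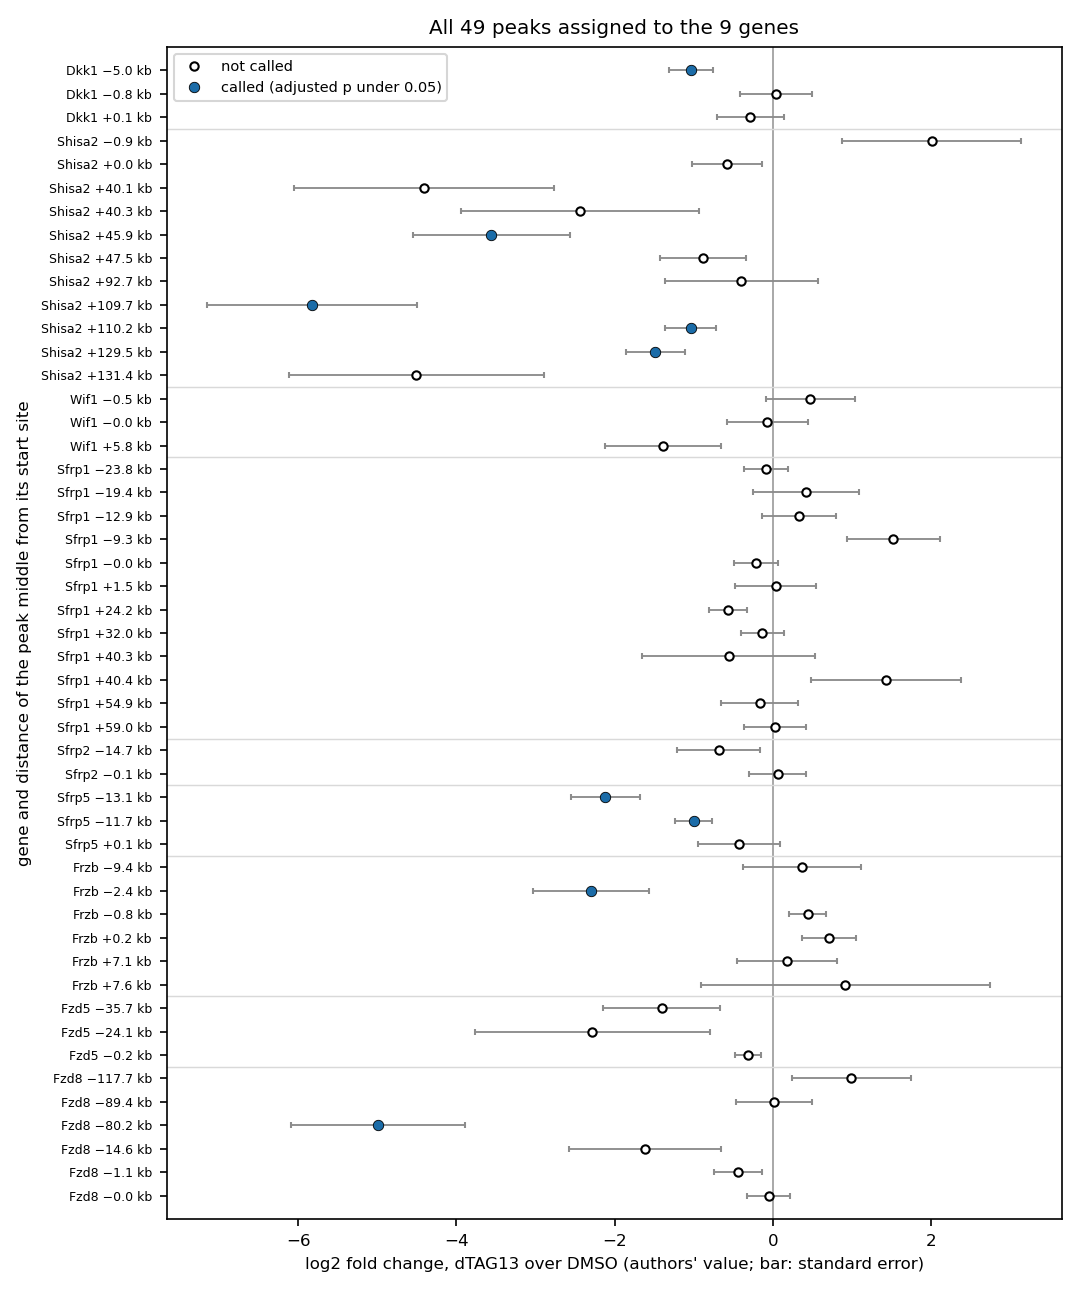
Log2 fold change of dTAG13 over DMSO (horizontal axis; bars are standard errors) for the 49 peaks, by gene and by distance of the peak middle from the nearest annotated start site of its gene. Filled points, all to the left of 0, are the 9 peaks with an adjusted p under 0.05; the peaks within 1000 bases of a start site lie between -0.58 and 0.71 except the weak Shisa2 peak at 2.01.

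Over all 49 members the median log2 fold change in the authors' deposited table was -0.32 (quartiles -1.39 and 0.06), beside -0.18 for all peaks, and 65.3% were negative beside 58.2% of all peaks. Near start sites the median was -0.05, beside 0.03 for all peaks there, and farther out it was -0.63, beside -0.38. The 23 peaks of the Frizzled-related genes had a median of 0.03 and the 9 Frizzled peaks one of -0.44. By the pooled peak lists, 32 member peaks were in both groups' lists (65.3%, beside 48.2% of all peaks), 14 in the DMSO list alone (28.6%, beside 40.1%) and 3 in the dTAG13 list alone (6.12%, beside 11.8%). Of the 9 lower peaks, 5 were in the DMSO list alone and 4 in both. Member peaks were stronger and longer, with a median mean of 12.9 normalized reads and a median length of 204 bases. For all peaks these medians were 7.33 and 131. The part of this difference in the list shares and in the share of lower peaks was not tested. Each list was called once per group, so list membership has no replicate error.

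Other genes of the WNT pathway gave shares of 1.72% to 3.90% lower per list in the authors' deposited table, near the background of 3.79%. These lists, like the members, were chosen with earlier results of these data known. Among 58 peaks at other secreted or membrane antagonists, 1 was lower, at Shisa6 (log2 fold change -4.81, SE 1.55), and 2 were higher, both at Trabd2b, a protease that inactivates WNT ligands (1.36, SE 0.34, for the stronger). Among 77 peaks at other Frizzled and WNT receptor genes, 3 were lower and 3 higher, led by the co-receptor gene Lrp5 (-5.89, SE 1.32) and by Ryk (0.97, SE 0.25) in the authors' deposited table. The ligand and secretion genes had 3 lower and 0 higher of 86 peaks, led by Wnt1 (-1.89, SE 0.50 in the authors' deposited table). The intracellular transducers had 2 lower and 0 higher of 55, led by the transcription factor gene Tcf7l2 (-2.10, SE 0.55 in the authors' deposited table). Feedback and target genes had 3 lower and 1 higher of 85: the feedback inhibitor gene Nkd1 led the lower ones (-5.06, SE 1.47), and the promoter of Axin2, a common readout of WNT activity, was the higher one (1.10, SE 0.27) in the authors' deposited table. Axin2 also had 1 of the lower peaks. Medians over the 5 lists ran from -0.26 at the receptors to 0.09 at the other antagonists.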

How the data were processed

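ATAC-seq libraries of 3 DMSO and 3 dTAG13 samples were compared. Per the submitters' processing notes, fastp, Bowtie2, MACS2, featureCounts, ChIPseeker and HOMER 4.11 were used with mm10; their settings are not given in the sources used here. The authors deposited 1 pooled peak list per group, with MACS-style scores that were not used as measurements, and a table of peaks that holds a mean signal (a normalized read count over 6 libraries), a log2 fold change with its standard error, and p-values with adjusted p-values. Per the file headers these columns are those of a DESeq2 results table made by the authors; no count model was refitted here. The other columns deposited by the authors give the assigned gene, the annotation and marks. A call is an adjusted p under 0.05 over all 69128 peaks that have one.

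Because the deposited mean is a sum of whole reads over size factors, the factors were solved from peaks with reads in 1 group only. Then 291 of 291 DMSO-only and 67 of 67 dTAG13-only values came out whole, with a largest absolute residual of 6.93e-08 in summed normalized reads. Reads at member peaks with a mean under 100 were the set that returned the deposited fold change within 1e-06; 48 peaks had exactly 1 such set. On 57 simulated peaks, 56 returned 1 set, and those 56 were right. The recovery was given the simulated size factors there, and the simulated fold changes came from the same fit that it inverts. Error in the solved factors and any difference from the authors' fit did not enter this check. Total depth is not given in the files, and recovered reads were used for description only.

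Motifs used the GRCm38 sequence (NCBI), and distances and nearest genes used start sites of a GENCODE annotation. The sequence of the lower Frzb peak is not reported here. Scripts ran under Python 3.11.15 with scipy 1.17.1 and pandas 2.3.3 (numpy 2.4.6). Named peaks were those with an unadjusted or adjusted p under 0.05, the peak nearest each start site, and the smallest p in each direction per WNT list; other peaks named were chosen after their values were seen. The members and lists were chosen with earlier results of these data known. Other zero points, filters, thresholds and gene assignments were tried.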

Additional observations from a re-analysis of the deposited data

How the results depend on the processing

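The 9 lower member peaks became 5 with the median of each GC decile set to 0 and 4 with the nearest annotated start site in place of the gene column, which drops the Shisa2 and Fzd8 peaks. The count of higher members went from 0 to 2 with GC deciles centred, at Frzb and Sfrp1. Over all peaks, the 2622 lower calls became 1480 with GC deciles centred and 4342 at an adjusted p under 0.1. The 1016 higher calls became 1958 with the median of all peaks set to 0, 1933 with GC deciles centred and 1949 at an adjusted p under 0.1. The median of all peaks is -0.18 and that of peaks in both lists 0.09 on the log2 scale, so the zero point moves which weak changes pass. The Sfrp5 and Fzd8 calls and those of Shisa2 at 45.9 and 109.7 kb passed under every zero point tried. They also passed without a filter on weak peaks and with a minimum mean of 5 normalized reads. When lower calls also had to fall by 1 or more on the log2 scale, 8 member peaks remained, without the near Sfrp5 peak (-0.999). When peaks had to lie within 100 kb of their assigned gene, 6 remained, without the Shisa2 peaks at 109.7, 110.2 and 129.5 kb. No called peak changed sign, but 4 uncalled peaks near 0 did: with the median of all peaks set to 0 the log2 fold changes at the start sites of Fzd8 and Wif1 were 0.13 and 0.11, with GC deciles centred that of Fzd8 was 0.00103, and with the median of peaks in both lists set to 0 those of Dkk1 807 bases upstream and of the Sfrp2 start site were -0.0562 and -0.0305. Leaving out each library in turn was added after seeing the data and with no test. It changed the sign at 6 of the 25 peaks examined, at start sites or upstream of Dkk1, Fzd8, Sfrp2, Sfrp5 and Wif1. All 11 peaks with an unadjusted p under 0.05 and a ratio to compute kept their sign. The scaled libraries of the groups do not overlap at any called peak, so no left-out library could reverse the sign there. This outcome is therefore no support for the calls. Log2 ratios ran from -1.20 to -0.80 at the lower Dkk1 peak and from -2.86 to -1.74 at that of Frzb. At that of Fzd8 the 5 ratios ran from -5.25 to -4.56, and the case that left dTAG13 at 0 reads gave no ratio. Counts of calls with a library left out were not run, since reads of all peaks were not recovered. No paired analysis was possible because the table carries no replicate numbers. Total depth is unknown, so a peak at 0 reads is not shown to be closed.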

Other observations

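The deposited peak table marks genes as down or up in columns headed as differentially expressed genes (rank 10); how those genes were chosen is not given in the sources used here. Among the members, Dkk1, Shisa2, Sfrp5 and Fzd5 are marked down (4 of 9, beside 1.38% of the 26796 genes with a peak), and Sfrp1 and Frzb are marked up (2 of 9, beside 1.6%). Of the 9 lower member peaks, 7 lie at genes marked down and 1, at Frzb, at a gene marked up. Over all lower peaks, 7.32% lie at genes marked down and 2.17% at genes marked up. A mark belongs to a gene, and the 7 peaks are 4 at Shisa2, 2 at Sfrp5 and 1 at Dkk1. They are therefore not independent cases, and the link of the 4 to Shisa2 rests on the gene column alone. The genes marked down hold many member peaks, lower or not: 11 at Shisa2 and 3 each at Dkk1, Sfrp5 and Fzd5. The share over all lower peaks is thus no matched base for the members. Frzb carries an up mark beside 1 lower peak and positive log2 fold changes at its other 5. Fzd5 is marked down with no called peak, and Fzd8 has a lower peak and no mark. No test was made on these marks.

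At least 1 lower peak was found at 5 of the 9 member genes (55.6%), beside 12.1% of the 16128 genes with 2 or more peaks. Members had up to 12 peaks, and the number of peaks per gene was not matched in this comparison. The member genes were also chosen with earlier results of these data known.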
